A study of Mus musculus with 6 samples.

Results

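The genes described here code for potassium channels and their subunits and were chosen by name as those whose symbol on the array starts with Kcn. Without Kcnj8, Kcnj10, Kcnj13 and Kcnj16, which were left out of the selection, 93 genes with 141 probes remained, compared with 22374 gene symbols on the array that were found in RefSeq. All 93 symbols were found there. Of these, 90 are channel subunits or regulators, and 3 (Kcnd3os, Kcnmb4os1 and Kcnq1ot1) are noncoding RNAs that carry the name of a neighboring channel gene. For 40 genes the array holds more than 1 probe, and each such gene is represented by the probe whose signal, averaged over the 6 arrays, was highest.

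Gene expression was measured in 2 astroglial fractions of the neonatal mouse cerebellum, each with 3 biological replicates of 50000 cells. Per the labels the mice were wild-type CD1 animals of postnatal days 1 to 3, whereas the methods of the study give postnatal days 0 and 1. The general methods also name a background other than CD1 for wild-type mice. Cerebella of either sex were pooled, so that a replicate is a pool and not an animal. A+/G+ cells, positive for both ACSA-2 (an epitope of the Na/K-ATPase beta subunit Atp1b2) and the glutamate transporter GLAST (Slc1a3), were enriched with Anti-ACSA-2 beads alone. For A-/G+ cells, those carrying L1CAM, ACSA-2, CD45, PSA-NCAM or Ter119 were first removed, and GLAST-positive cells were then selected, so that neuronal and blood cells were depleted in this fraction only.

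Potassium channels set the resting potential and end action potentials, and in astroglia they carry the potassium that neurons release. The pore is built from voltage-gated (Kcna, Kcnb, Kcnc, Kcnd, Kcnh, Kcnq), calcium- or sodium-activated (Kcnma, Kcnn, Kcnt, Kcnu), inward rectifier (Kcnj) or two-pore domain (Kcnk) subunits, whereas Kcnab, Kcne, Kcnip and Kcnmb proteins bind to a pore and change its gating or its traffic to the membrane. Kcnf, Kcng, Kcns and Kcnv subunits form no channel alone and modify those of the Kcnb family. In the mature cerebellum most of these channels are best known from granule and Purkinje neurons, and inward rectifiers and two-pore domain channels from astroglia.

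Signals are normalized log2 intensities throughout, in which 1 unit is a doubling. The 75th percentile of the intensity before normalization was 332 to 334 in A+/G+ but 56.6, 113 and 251 in A-/G+ replicates 1, 2 and 3, and since the fractions lay on different slides, an effect of the slide cannot be told apart from one of the fraction. Atp1b2 was higher in A+/G+ by 2.16 (standard error 0.18, limma, adjusted p = 0.00725), and Slc1a3, detected on all 6 arrays, had a mean of 13.39 in A+/G+ compared with 14.59 in A-/G+ (adjusted p = 0.0733). Markers of other cell types moved with the fraction, too. In the marker counts below, higher or lower means an adjusted p of at most 0.05 (limma). Of all genes, 7.88% passed this limit in the direction of A+/G+ and 5.01% in that of A-/G+. Of the markers of oligodendrocyte precursors, 3 of 5 were higher in A+/G+, and the summed log2 level of all 5 was 13.62 to 13.90 in A+/G+ and 10.13 to 11.13 in A-/G+. Cspg4 and Sox10 did not pass but had higher means in A+/G+ as well. Among markers of Purkinje cells, 4 of 8 were higher and 1 (Pvalb) was lower in A+/G+, with summed levels of 12.34 to 13.76 and 11.15 to 11.50, and Calb1, Car8 and Foxp2 were below the background limit throughout A-/G+. The counts were 2 of 5 for GABAergic interneurons (10.25 to 11.10 against 7.44 to 8.43) and 3 of 7 for endothelium and mural cells (13.04 to 13.52 against 10.65 to 12.87). For ependyma and choroid plexus, 1 of 5 markers (Foxj1) was higher in A+/G+, and for astroglia 1 of 7 (Gja1) was higher and 1 (Aldh1l1) lower. For the granule cell lineage 1 of 7 (Pax6) was lower, with summed levels of 14.08 to 14.30 in A+/G+ and 14.57 to 14.91 in A-/G+. None of 10 markers of neurons in general and none of 6 of microglia and blood had an adjusted p of at most 0.05, and their summed levels overlapped between the fractions. Among the neuron markers, Stmn2, Nefl and Nefm still had more signal on every A+/G+ array than on any A-/G+ array. Their means differed by 2.18, 3.70 and 2.78. Snap25, Syt1 and Elavl4 had lower means in A+/G+, with overlapping arrays. The part of other cell types in the differences below was not tested.

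The number of Kcn genes detected differed between the fractions. In A+/G+, 64, 63 and 65 of the 93 genes were well above background, a flag of the scanner software, compared with 24, 31 and 45 in A-/G+. These are 67.7 to 69.9% of the Kcn genes in A+/G+ and 25.8, 33.3 and 48.4% in A-/G+. Over all genes on the array the shares were 65.0 to 65.2% and 49.8, 55.1 and 60.7%, respectively, in the same order as the brightness of the arrays. Counting the brightest probe of a gene alone gave the same numbers. Inward rectifiers were above background for 6, 6 and 7 of 11 genes in A+/G+ and for 1, 0 and 3 in A-/G+, and two-pore domain channels for 10 of 14 genes on each A+/G+ array and for 1, 4 and 6 in A-/G+. In total, 21 genes were well above background on all 6 arrays, 47 on some and 25 on none, and no gene was above background in A-/G+ alone. For these counts the share of all genes was not computed, and the A-/G+ arrays were dimmer as a whole.

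**Figure D1:**
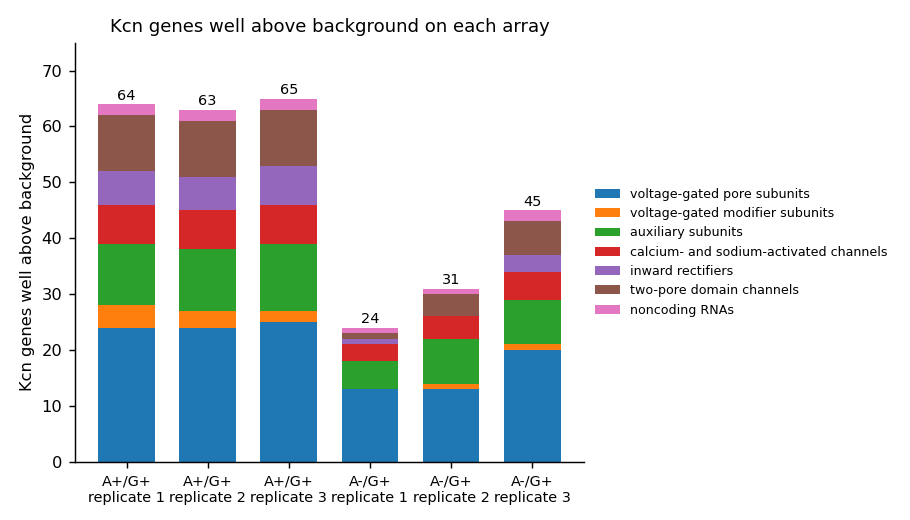
Number of Kcn genes well above background on each of the 6 arrays, stacked by channel class, with the total over each bar. Every A+/G+ array lies between 63 and 65 genes, whereas the A-/G+ arrays hold 24, 31 and 45.

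The 25 genes that were not well above background on any array are Kcna5 and Kcna10, Kcnab2, Kcne1, Kcnf1, Kcng1, Kcng3 and Kcng4, Kcnh6, Kcnh7 and Kcnh8, Kcnj1, Kcnj2, Kcnj6 and Kcnj14, Kcnk9, Kcnk15, Kcnk16 and Kcnk18, Kcnmb1, Kcnmb2 and Kcnmb3, Kcnn1, Kcnv2 and the noncoding Kcnmb4os1. They are counted in the median below and drawn as open circles, but no difference is given for any of them by name, because both fractions have only an upper bound.

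The fractions were then compared gene by gene. A gene was called when it had an adjusted p, over all probes, of at most 0.05 and a distance of at least 4-fold between the medians. By this rule 9 Kcn genes were higher in A+/G+, Kcna2, Kcna6, Kcnc4, Kcnd2, Kcnd3, Kcnip4, Kcnk3, Kcnk12 and Kcnt1, compared with 2.77% of all genes on the array. None was higher in A-/G+ (limma, with 7 Kcn genes lower in A+/G+ at an unadjusted p of at most 0.05, and 0 calls by the methods' t-test), where 0.42% of all genes were called. With the adjusted p alone, 13 Kcn genes were higher in A+/G+ (7.88% of all genes) and 2 in A-/G+ (5.01% of all genes). Over the 93 genes the median difference, A+/G+ minus A-/G+, was 0.48, and it was -0.03 over all genes. With the arrays aligned at their 75th percentile instead, these medians were -0.07 and -0.34, so that the sign of the first depends on the scaling, while it stayed above the second. In these bulk samples, fewer cells that express a gene and less of its RNA per cell cannot be told apart. For 4 of the called genes (Kcnc4, Kcnip4, Kcnk3 and Kcnk12) no A-/G+ array was well above background, so that their level in A-/G+ is only a bound, and for Kcna2 and Kcnt1 only 1 A-/G+ array was.

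**Figure D2:**
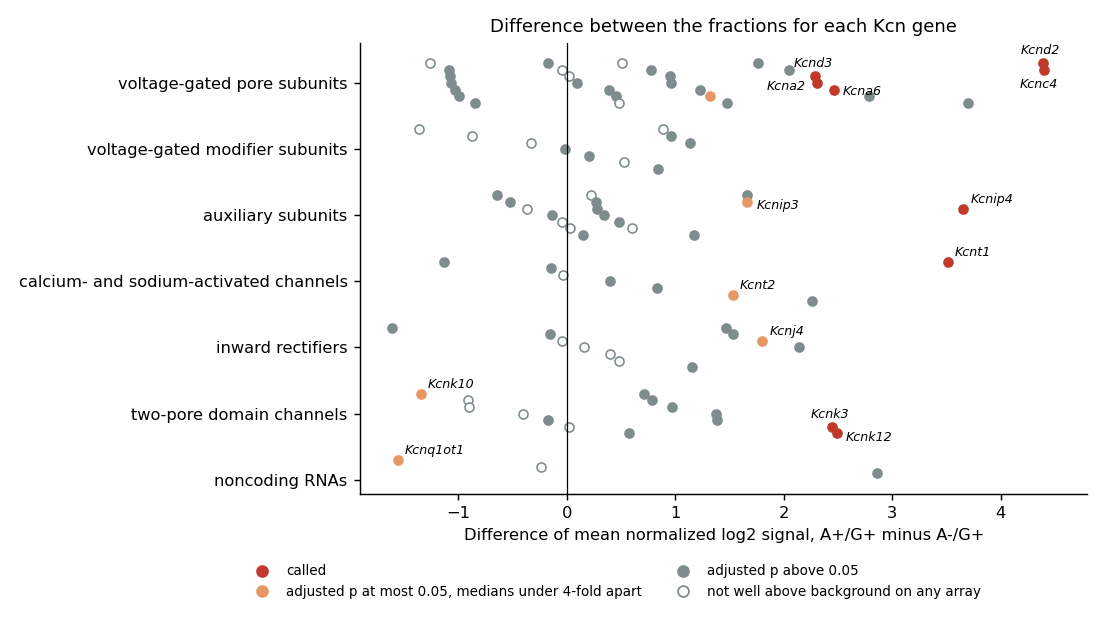
Difference of the mean normalized log2 signal, A+/G+ minus A-/G+, for each of the 93 Kcn genes, by channel class. Red marks called genes, orange the others that passed the p limit alone, and open circles genes that no array detected above background; of the 14 named genes, 12 lie to the right of 0, and Kcnk10 and Kcnq1ot1 lie to the left.

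Of the 3 pore genes of the Kv4 channels, which pass a fast, transient current at voltages below the spike threshold, Kcnd2 and Kcnd3 were called. The sequences of the 250 bases upstream of the RefSeq start (GRCm38.p6) are shown for Kcnd2 (chr6:21215096-21215345, plus strand) and Kcnd3 (chr3:105451640-105451889, plus strand), which form Kv4 pores, and for Kcna2 (chr3:107101317-107101566, plus strand) and Kcna6 (chr6:126740675-126740924, minus strand), which form Kv1 pores and were called as well. Each is written 5′ to 3′ in the direction of the gene.
Kcnd2: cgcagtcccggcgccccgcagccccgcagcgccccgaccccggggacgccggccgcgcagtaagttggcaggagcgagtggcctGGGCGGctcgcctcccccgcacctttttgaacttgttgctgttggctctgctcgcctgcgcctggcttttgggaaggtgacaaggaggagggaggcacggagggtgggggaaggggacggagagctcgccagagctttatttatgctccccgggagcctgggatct
Kcnd3: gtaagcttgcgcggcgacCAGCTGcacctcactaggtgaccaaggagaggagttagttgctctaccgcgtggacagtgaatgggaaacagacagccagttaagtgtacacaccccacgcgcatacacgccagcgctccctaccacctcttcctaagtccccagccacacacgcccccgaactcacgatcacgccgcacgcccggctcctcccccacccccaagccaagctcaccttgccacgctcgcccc
Kcna2: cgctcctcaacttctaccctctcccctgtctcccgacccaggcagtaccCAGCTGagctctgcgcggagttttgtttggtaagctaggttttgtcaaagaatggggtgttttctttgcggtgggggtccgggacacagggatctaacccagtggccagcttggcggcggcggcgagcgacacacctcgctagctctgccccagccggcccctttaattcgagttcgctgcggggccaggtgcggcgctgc
Kcna6: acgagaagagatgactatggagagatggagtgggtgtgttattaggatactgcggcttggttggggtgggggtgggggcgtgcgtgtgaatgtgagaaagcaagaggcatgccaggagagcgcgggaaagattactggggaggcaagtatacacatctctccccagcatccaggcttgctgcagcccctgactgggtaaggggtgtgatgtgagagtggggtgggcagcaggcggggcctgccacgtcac
Capitals mark matches on either strand to a GC box (GGGCGG, in 32.7% of all 32851 RefSeq promoters of this length) or an E-box (CAGCTG, in 13%). The TATA box letters TATAAA (12.4% of promoters) and the full NFI site (TTGGC and, after any 5 bases, GCCAA, in 0.0365%) were searched as well and are not among these letters. The Kcnd2 window holds 1 GC box, the Kcnd3 and Kcna2 windows hold 1 E-box each, and the Kcna6 window holds none of the 4. The motifs do not overlap here, and a match is a description of the sequence only. Their GC content was 68.8% for Kcnd2, 62.8% for Kcnd3, 62.4% for Kcna2 and 58.8% for Kcna6, compared with a median of 52.4% over all promoters. Of the 15 genes with an adjusted p of at most 0.05, 12 had a promoter entry.

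Kcnd2 (Kv4.2) had signals of 11.60, 11.35 and 11.43 in A+/G+ replicates 1, 2 and 3 and of 7.25, 5.89 and 8.07 in those of A-/G+. The 2 groups of arrays did not overlap, and the spread was wider in A-/G+ (SD 1.10, n = 3) than in A+/G+ (SD 0.13, n = 3). The means differed by 4.39 (standard error 0.58, limma, adjusted p = 0.0182), and the medians were 18.1-fold apart. Its probe lies on chromosome 6 of mm9 from 21679569 to 21679628. Without any 1 of the A+/G+ arrays or without A-/G+ replicate 1 the call was lost (adjusted p of 0.0528 to 0.0807), although the difference stayed between 3.79 and 4.88 whichever array was left out.

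Kcnd3 (Kv4.3) had signals of 12.30, 11.91 and 11.86 in A+/G+ and of 9.57, 9.15 and 10.47 in A-/G+ at its brighter probe (chromosome 3 of mm9, 105476854 to 105476913). The groups did not overlap, and A-/G+ replicate 3 lay nearest to A+/G+. The means differed by 2.29 (standard error 0.37, limma, adjusted p = 0.0296), with medians 5.06-fold apart. Its second probe pointed the same way, by 2.13 (adjusted p = 0.0406), but was not above background in A-/G+, where the difference was at least 1.19-fold. The call at the brighter probe held only when A-/G+ replicate 3 was left out, and the other 5 arrays left out in turn gave adjusted p values of 0.061 to 0.109 and differences of 2.00 to 2.38. Kcnd1 (Kv4.1), the remaining pore gene, averaged 5.94 ± 0.02 in A+/G+ and 5.85 ± 0.27 in A-/G+ (SD, n = 3), a difference of 0.10 (95% interval -0.28 to 0.48, adjusted p = 0.701).

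KChIP proteins, calcium-binding partners that bring Kv4 channels to the membrane, are encoded by Kcnip1 to Kcnip4. Kcnip4 had signals of 7.73, 7.64 and 7.65 in A+/G+ and of 4.09, 4.06 and 3.91 in A-/G+ (chromosome 5 of mm9, 48780889 to 48780948). The replicates of each fraction lay within 0.2 units of each other. The measured means differed by 3.66 (standard error 0.07, limma, adjusted p = 0.00115). As no A-/G+ array was well above background, the difference is at least 6.99-fold. A second probe, which spans an exon junction, differed by 1.89 in the same direction (adjusted p = 0.017), with A-/G+ again not above background.

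Kcnip3, also known as calsenilin and DREAM, had signals of 12.82, 12.92 and 12.99 in A+/G+ and 11.02, 11.22 and 11.50 in A-/G+. The difference of 1.66 (standard error 0.14, limma, adjusted p = 0.00725) was past the p limit, but the medians were 3.26-fold apart and thus under the size limit. Kcnip1 (means 6.33 and 5.85 in A+/G+ and A-/G+, adjusted p = 0.299) and Kcnip2 (4.73 and 4.46, adjusted p = 0.788) did not pass. For Kcnip2 no A-/G+ array was well above background, so its level there is only a bound. Of the other Kv4 partners, Dpp6 and Dpp10, both dipeptidyl peptidase-like proteins without enzyme activity, the first had 1.31 more signal in A+/G+ (adjusted p = 0.00707; medians 2.61-fold apart) and the second was called at both of its probes, by 3.53 (adjusted p = 0.0171; at least 2.02-fold) and 3.11 (adjusted p = 0.0286; at least 1.75-fold). The call of Dpp10 was lost without any 1 A+/G+ array or A-/G+ replicate 1. Of the 9 genes named here for this complex, 6 passed the p limit with more signal in A+/G+ (7.88% of all genes), and 4 were called (2.77% of all genes). The complex was named because genes of it were called in these data, so its counts are a description and no further support.

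**Figure D3:**
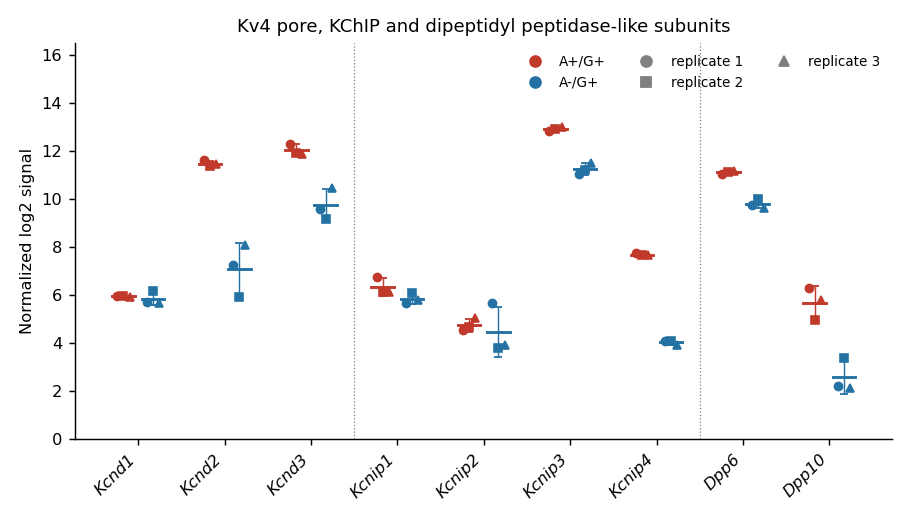
Normalized log2 signal of the Kv4 pore genes (left), KChIP genes (middle) and dipeptidyl peptidase-like genes (right) at each gene's brightest probe. Points are arrays (circle, square and triangle for replicates 1, 2 and 3), horizontal lines are means and bars are SD (n = 3); the fractions are apart for Kcnd2, Kcnd3, Kcnip3, Kcnip4, Dpp6 and Dpp10 and close or overlapping for Kcnd1, Kcnip1 and Kcnip2. In A-/G+, Kcnip2, Kcnip4 and Dpp10 were not well above background on any array, so their levels there are only bounds.

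Of the genes for Kv1 channels, which hold axons and terminals near rest, Kcna2 and Kcna6 were called. Kcna6 (Kv1.6) had signals of 11.76, 11.21 and 11.38 in A+/G+ and of 8.96, 8.90 and 9.10 in A-/G+ (chromosome 6 of mm9, 126658424 to 126658483), a difference of 2.46 (standard error 0.16, limma, adjusted p = 0.00455) with medians 5.34-fold apart. Its other probes lie elsewhere in the gene and were dimmer. One differed by 2.45 (adjusted p = 0.0022, not above background in A-/G+) and was called, whereas the other differed by 1.01 and was not (adjusted p = 0.131).

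Kcna2 (Kv1.2) had signals of 6.83, 6.55 and 6.59 in A+/G+ and of 4.08, 4.23 and 4.72 in A-/G+ (chromosome 3 of mm9, 106909700 to 106909759). Only A-/G+ replicate 3 was well above background in that fraction. The measured means differed by 2.31 (standard error 0.20, limma, adjusted p = 0.00747), and the measured medians were 5.13-fold apart, the one of A-/G+ being that of an array below the background limit. With the undetected arrays set to that limit, the means were at least 2.94-fold apart, which is under the size limit of a call. Both calls held with each array left out in turn.

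In RefSeq, Kcna5, Kcna1 and Kcna6 follow each other with no other coding gene between them, and so do Kcna3, Kcna2 and Kcna10. No neighbor of the called genes passed the test, and Kcna5 and Kcna10 were not detected. Kcna1 (Kv1.1) had signals of 7.15, 6.43 and 6.34 in A+/G+ and of 1.92, 1.96 and 4.96 in A-/G+. Among the A-/G+ arrays only replicate 3 was well above background, so the other signals are only bounds. The measured difference of 3.70 missed the limit (standard error 0.93, limma, adjusted p = 0.0821). Kcna3 (Kv1.3) had 4.35, 4.23 and 4.35 in A+/G+ and 7.09, 5.01 and 3.81 in A-/G+ (adjusted p = 0.555). Kcna4 (7.66 and 8.51, adjusted p = 0.0822) and Kcna7 (5.58 and 6.60, adjusted p = 0.466) had higher means in A-/G+ without passing the test. The beta subunit gene Kcnab1 had means of 6.70 and 7.23 (adjusted p = 0.0923) and Kcnab3 of 4.98 and 4.83 (adjusted p = 0.871). For Kcnab3 only replicate 3 of the A-/G+ arrays was well above background. Among genes for proteins that cluster Kv1 channels, Cntn2, Cntnap2, Lgi1, Adam22 and Dlg4 had adjusted p values of 0.06 to 0.821 at their brightest probes.

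Of the Kv3 genes, which let neurons fire at high rates, Kcnc4 (Kv3.4) was called. Its signals were 7.57, 7.39 and 7.53 in A+/G+ and 3.75, 1.93 and 3.60 in A-/G+ (chromosome 3 of mm9, 107241564 to 107241623), and no A-/G+ array was well above background. The measured means differed by 4.4 (standard error 0.53, limma, adjusted p = 0.0148), which stands for a difference of at least 6.18-fold. Without any 1 of the A+/G+ arrays the call was lost (adjusted p of 0.0611 to 0.068). Kcnc1 (Kv3.1) differed between its probes. The brightest had means of 7.23 and 6.84 (difference 0.39, adjusted p = 0.531), the second differed by 0.96 (adjusted p = 0.33), and the dimmest, which was above background in A+/G+ only, was called with a difference of 2.20 (adjusted p = 0.0352). Kcnc2 had signals of 4.89 to 4.93 in A+/G+ and of 1.88, 3.21 and 4.33 in A-/G+ (adjusted p = 0.186), where only replicate 3 was well above background.

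The Kcnq genes code for channels that carry the M-current. Kcnq3 had signals of 4.71, 4.86 and 4.48 in A+/G+ and of 6.30, 5.94 and 5.06 in A-/G+, and although the arrays did not overlap, the difference missed the limit (adjusted p = 0.145). Kcnq1 (means 5.69 and 3.64, adjusted p = 0.239) and Kcnq5 (4.29 and 3.51, adjusted p = 0.484) did not pass. Among the A-/G+ arrays only replicate 3 was well above background for Kcnq1 and none for Kcnq5, whose level there is only a bound. None of the Kcne genes, whose products bind Kcnq pores, passed the test. Kcne1l had means of 11.62 ± 0.10 and 11.34 ± 0.44 (SD, n = 3), with a difference of 0.28 (95% interval -0.34 to 0.90, adjusted p = 0.551), and Kcne2, which choroid plexus expresses, had 9.42, 8.84 and 8.54 in A+/G+ and 9.97, 8.22 and 10.54 in A-/G+ (adjusted p = 0.601).

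Kv2 pores and their modifiers gave no call. Kcnb2 had means of 5.05 in A+/G+ compared with 6.11 in A-/G+ (adjusted p = 0.206), and the Kv2 partner Amigo1 had means of 7.42 and 6.89 (adjusted p = 0.12). Of the 10 modifier genes, 5 were not above background anywhere and none passed the test. None of the 8 Kcnh genes, which code for EAG, ERG and ELK channels, passed either. Kcnh3 came nearest, with 6.17, 6.73 and 6.87 in A+/G+ and 2.05, 4.65 and 4.71 in A-/G+ (adjusted p = 0.115), where only replicate 3 was well above background.

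Kcnt1 and Kcnt2 code for the sodium-activated channels Slack and Slick. Kcnt1 had signals of 8.33, 8.27 and 7.96 in A+/G+ and of 5.21, 3.89 and 4.91 in A-/G+ (chromosome 2 of mm9, 25773734 to 25773793), and among the A-/G+ arrays only replicate 3 was well above background. The measured means differed by 3.51 (standard error 0.38, limma, adjusted p = 0.0118) and the measured medians by 10.3-fold, and with the undetected arrays set to their background limit the means were at least 8.11-fold apart. Without any 1 of the A+/G+ arrays the adjusted p was 0.0536 to 0.0603. Its second probe was not above background on any array. Kcnt2 was higher in A+/G+ by 1.53 (standard error 0.26, limma, adjusted p = 0.0333), with A-/G+ not above background and the difference at least 1.03-fold. Leaving out any 1 A+/G+ array or A-/G+ replicate 3 took its adjusted p to between 0.0514 and 0.126.

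Of the calcium-activated channels, none passed at its brightest probe. Kcnma1, the BK pore, had means of 6.91 and 6.51 (adjusted p = 0.614), and its neuronal beta subunit gene Kcnmb4 had 11.14 ± 0.07 in A+/G+ and 11.27 ± 0.33 in A-/G+ (SD, n = 3; 95% interval of the difference -0.59 to 0.33, adjusted p = 0.669). Genes for BK gamma subunits (Lrrc26, Lrrc38, Lrrc52 and Lrrc55) had adjusted p values of 0.397 to 0.758. Among the SK channels, Kcnn2 had means of 9.76 and 9.90 (adjusted p = 0.681). Kcnn3 was higher in A-/G+ by 1.13 at its brighter probe (adjusted p = 0.134) and by 1.5 at a second probe that spans an exon junction (adjusted p = 0.0494). Kcnn4 was above background in A+/G+ only, at 4.78, 5.51 and 5.59, and just missed the limit (adjusted p = 0.0578).

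Among the two-pore domain channels, which carry leak current, the fractions differed in both directions. Kcnk10 (TREK-2, a channel opened by stretch and lipids) was higher in A-/G+, with 10.91, 10.93 and 10.46 compared with 9.30, 9.47 and 9.51 in A+/G+ (chromosome 12 of mm9, 99672268 to 99672327). The groups did not overlap. The difference of 1.34 (standard error 0.16, limma, adjusted p = 0.0137) stayed under the size limit, with medians 2.72-fold apart. It was the only coding Kcn gene higher in A-/G+ at this p limit at its brightest probe, and without any 1 A+/G+ array the adjusted p was 0.0586 to 0.0648.

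Kcnk12 (THIK-2) had signals of 5.19, 5.0 and 5.24 in A+/G+ and of 2.33, 2.85 and 2.79 in A-/G+ (chromosome 17 of mm9, 88145628 to 88145687), a measured difference of 2.49 (standard error 0.17, limma, adjusted p = 0.0049). Kcnk3 (TASK-1) had 4.84, 4.79 and 4.83 in A+/G+ and 1.94, 1.98 and 3.19 in A-/G+ (chromosome 5 of mm9, 30927090 to 30927149), a measured difference of 2.45 (standard error 0.37, limma, adjusted p = 0.0249). In A-/G+ neither was well above background on any array, so that the difference is at least 1.21-fold for Kcnk12, and for Kcnk3 the signal in A+/G+ lay below the mean background limit of the A-/G+ arrays and no fold is given. The call of Kcnk3 held only without A-/G+ replicate 3 (adjusted p of 0.0613 to 0.0977 for the other arrays left out). Kcnk1 (TWIK-1), Kcnk2 (TREK-1) and Kcnk4 (TRAAK) had adjusted p values of 0.333 to 0.557.

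Of the 11 inward rectifiers only Kcnj4 (Kir2.3) passed the p limit, with 4.53, 5.05 and 4.43 in A+/G+ and 2.33, 3.12 and 3.16 in A-/G+ (difference 1.80, standard error 0.30, limma, adjusted p = 0.0313). No A-/G+ array was above background, and the difference was below what the background limit of these arrays allows to be given as a fold. Its adjusted p was 0.0736 to 0.0991 without any 1 A+/G+ array or without A-/G+ replicate 2. Kcnj9 (Kir3.3) had the widest spread within a fraction of all 93 genes. Its A-/G+ signals were 11.68, 3.53 and 3.78 in replicates 1, 2 and 3, compared with 5.25, 4.39 and 4.52 in A+/G+, so that 1 array alone placed the mean of A-/G+ above that of A+/G+ (adjusted p = 0.702). A-/G+ replicates 2 and 3 were not well above background, so without replicate 1 the level in A-/G+ is only a bound. The measured difference was then 1.16, A+/G+ minus A-/G+ (limma, adjusted p = 0.148). The KATP pore gene Kcnj11 had means of 4.21 and 4.36 (adjusted p = 0.797), whereas the receptor gene Abcc9 had 8.51, 8.59 and 8.54 in A+/G+ and 3.63, 3.62 and 7.54 in A-/G+ (adjusted p = 0.147), and Abcc8 had adjusted p values of 0.557 and 0.587 at its probes. For Kcnj11 and for Abcc9 only 1 A-/G+ array was well above background.

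The HCN channels, cation channels of the same superfamily, gave no difference past the limit. Hcn2 and Hcn3 were detected on every array and had differences of -0.18 and 0.07 (adjusted p = 0.73 and 0.802), and Hcn4 was not above background on any. In all, 2 of the 18 partner and HCN genes passed the p limit in the direction of A+/G+, where 7.88% of all genes did, and none in that of A-/G+, where 5.01% did.

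Of the noncoding RNAs, Kcnq1ot1, which silences imprinted genes around Kcnq1 on the paternal chromosome, was higher in A-/G+, with 9.21, 8.25 and 8.98 compared with 7.55, 7.02 and 7.21 in A+/G+. The difference of 1.55 (standard error 0.30, limma, adjusted p = 0.043) held only when A-/G+ replicate 2 was left out, and a second probe was not above background. Kcnd3os, next to Kcnd3, had 5.57, 6.01 and 5.62 in A+/G+ and 2.07, 2.05 and 4.5 in A-/G+ (adjusted p = 0.0875), where only replicate 3 was well above background.

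**Figure D4:**
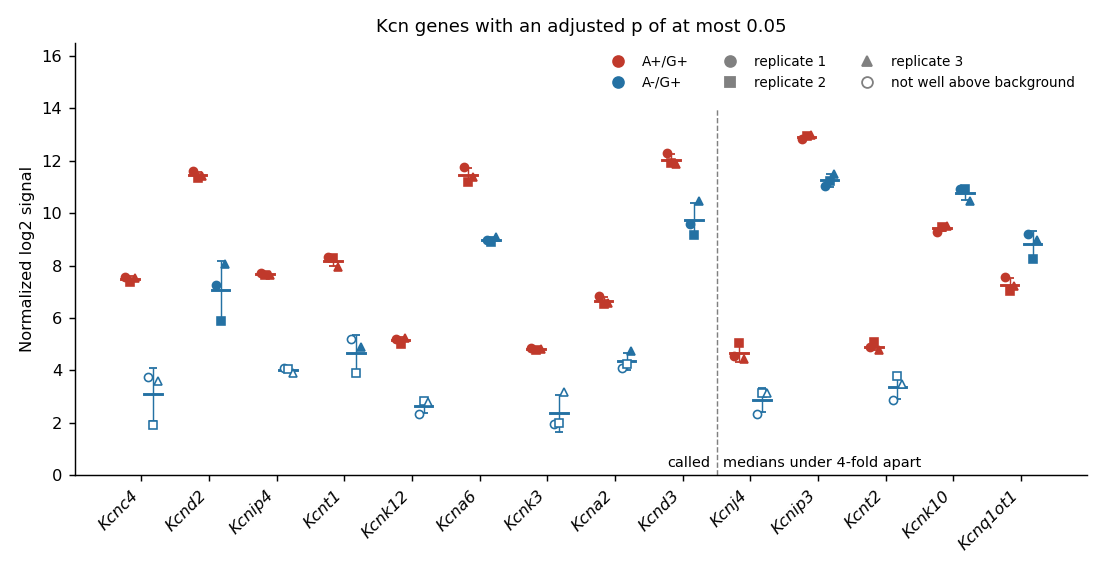
Normalized log2 signal on each array for 14 of the 15 Kcn genes with an adjusted p of at most 0.05, the 9 called genes left of the dashed line. Lines are means and bars are SD (n = 3), and open symbols are arrays on which the probe was not well above background; all open symbols belong to A-/G+ arrays. The genes were picked by the p limit, so that their fractions do not overlap is no further support.

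A-/G+ replicate 3 stood between the fractions for several Kcn genes. Without it, 16 genes were called higher in A+/G+ in place of 9. The added ones were Kcna1 (measured difference 4.67, limma, adjusted p = 0.007), Kcnc2, Kcnd3os, Kcnj3, Kcnj12, Kcnn4 and Kcnq1. None of these added genes was well above background on the remaining A-/G+ arrays, so their level there is only a bound. The share of all genes called without replicate 3 was not computed. A-/G+ replicate 3 was also the brightest array of its fraction before normalization. Among the A-/G+ arrays it had the highest signal for 8 of 10 markers of neurons in general, 7 of 7 of endothelium and mural cells, 5 of 5 of oligodendrocyte precursors, and 4 each of 7 of the granule cell lineage, 6 of microglia and blood and 5 of ependyma and choroid plexus. It was highest for 1 of 5 markers of GABAergic interneurons and for 0 of 8 of Purkinje cells and 0 of 7 of astroglia. The part of these cell types in the Kcn signals of that array was not tested. Of the 9 called genes, 4 (Kcna2, Kcna6, Kcnip4 and Kcnk12) were called whichever single array was left out.

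**Figure D5:**
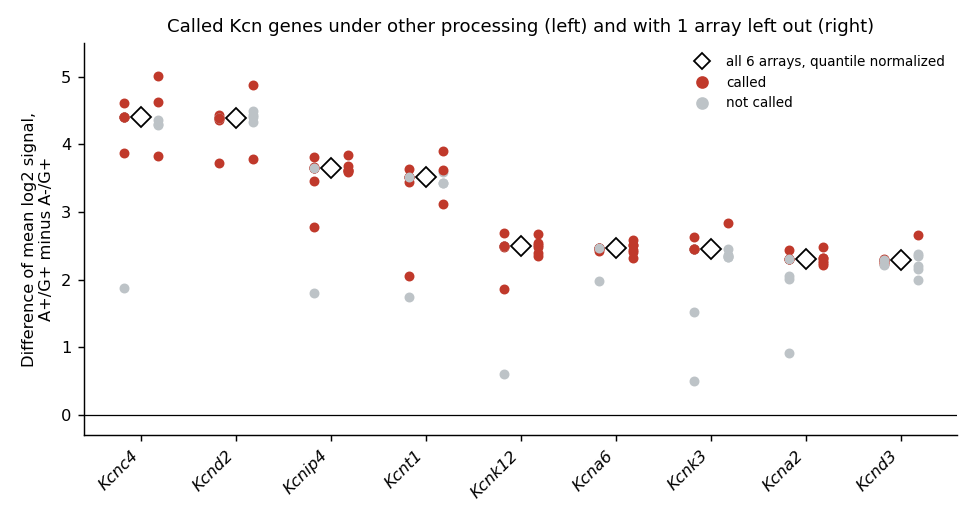
Difference of the mean log2 signal, A+/G+ minus A-/G+, for the 9 called genes with all arrays (diamonds), under other processing (points left of each diamond) and with 1 array left out (points right of it). All differences lie above 0, grey points are those under which the gene was not called, and for Kcnc4, Kcnd2, Kcnip4, Kcnk12, Kcnk3 and Kcna2 the lowest point is that with normexp background correction.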

How the data were processed

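RNA of 6 sorted samples, 3 per fraction, was amplified, labeled with Cy3 and hybridized to whole-genome mouse arrays (Agilent). Per the file headers, Feature Extraction 10.7.3.1 wrote the deposited scanner files, which hold for every spot a background-corrected intensity and a flag for signal well above background. The authors also deposited a normalized log2 table, which served as an alternative here. Intensities of gene spots without an outlier mark were log2 transformed and quantile normalized, and repeated spots of a probe were averaged. All 55681 probes entered 1 fit with limma 3.58.1 (R 4.3.3) and Benjamini-Hochberg adjustment, which took the place of Student's test in the study's methods, while their limits (adjusted p of at most 0.05 and 4-fold medians) were kept. The fit was tested on simulated data.

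Groups follow the sample labels. The p-values measure the spread between 3 pools of cells per fraction, and the number of arrays limits the precision. An exact permutation test of 3 arrays against 3 cannot go below a two-sided p of 0.1 and was not used. Probes carry mm9 positions from the scanner files, and promoters carry GRCm38.p6 positions from RefSeq, with no conversion between the builds. Named are the genes called or past the p limit at any probe, the 12 with the smallest or largest differences among genes well above background throughout, genes not detected, genes of the same complexes, the 18 partner and HCN genes, and the markers of 9 cell type lists. Genes outside this rule, among them Kcnh3, Kcnj9, Kcnj11, Kcnk1, Kcnk2, Kcnk4, Kcnn4 and Kcnd3os, were chosen after their values were seen. Some genes of the selection are counted but not reported by name here. The members and lists were chosen with earlier results of these data known. Where a probe stayed below the background limit in 1 fraction, the bound (at least N-fold) sets the brighter fraction's mean against an average over the dim arrays, each at its own signal or at its lowest signal well above background, whichever was higher.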

Additional observations from a re-analysis of the deposited data

How the results depend on the processing

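Of the alternatives, the authors' table, limma with trend and robust variance and outlier spots kept gave the same 9 genes higher in A+/G+. With normexp background correction and an offset of 50, the count was 4, and Kcna2, Kcnc4, Kcnip4, Kcnk12 and Kcnk3 differed by 0.92, 1.87, 1.80, 0.60 and 0.50, with adjusted p values of at most 0.00988, but under the 4-fold limit. The filter on dim probes, which kept probes well above background on all 3 arrays of either fraction, gave 13. The added genes (Kcna1, Kcnd3os, Kcnh3 and Kcnn4) passed this filter through A+/G+ only, the fraction where they are high, so the larger count is no further support. The share of all genes called was not computed for these alternatives. The methods' t-test gave 6 (without Kcnd2, Kcnd3 and Kcnk3) and averaging a gene's probes 6 (Kcna2, Kcna6, Kcnd3 and Kcnt1 lost, Kcnn4 added). A shift of each array to its 75th percentile moved the median difference of all genes from -0.03 to -0.34 and that of the Kcn genes from 0.48 to -0.07. It gave 9 genes higher in A+/G+, of which 7 were shared, and 1 higher in A-/G+ (Kcng1, not above background on any array). With medians 2-fold apart, or with the adjusted p alone, 13 genes were higher in A+/G+, and A-/G+ had 2. With single arrays left out, 4 to 16 genes were called for A+/G+ and 0 to 1 for A-/G+.

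With the replicate number as a block, 0 Kcn genes were called in either direction, at adjusted p values of 0.063 to 0.115 for the 9 genes. Deviations of same-numbered arrays of the fractions had correlations of 0.088, 0.056 and 0.006, and those of other pairs had -0.075 to 0.036. With 3 arrays per fraction these values cannot decide whether the numbers pair the samples. The slide was not fitted as a block, since no slide held both fractions.

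Of 405 values of 27 named genes under these alternatives, 1 changed sign (Kcnmb4, -0.31 to 0.0078 with single arrays left out, the last without A-/G+ replicate 2), 79 no longer passed their limit and 4 now did. The cause of these changes was not tested. Dpp10 was also lost under the 75th percentile shift, the methods' t-test and the block. A Kcn gene that is dim in A-/G+ has only a bound there, and genes below background in both fractions could not be compared.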
